A study of Mus musculus with 4 samples.

Results

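The interstitial matrix and fibrosis genes are a set of 39 genes for collagens, matrix glycoproteins, proteoglycans, matricellular proteins, protease inhibitors and transforming growth factor beta (TGF-beta) signalling. They were chosen by symbol from the 25636 genes of the 4 deposited count matrices, and each of the 39 was found. Each matrix is 1 droplet-based 3' RNA library of nuclei from the kidney of female mice. The series, whose title concerns macrophages and mesangial cells in lupus nephritis, sets MRL/lpr mice, a strain that carries the lpr mutation in Fas, a gene for a death receptor, and develops lupus-like nephritis, against C57BL/6 mice at 6 and at 10 weeks of age, and its design text names the renal cortex as the tissue. No treatment is named in the labels. MRL mice with intact Fas were not among the groups, so effects of the Fas mutation, of other strain differences and of disease cannot be told apart. Each of the 4 groups is 1 library, and the labels do not say how many mice it holds. No difference therefore has a replicate check and no test between groups was run. The 95% intervals given with values reflect counting error alone. Sets of 4 values follow the order MRL/lpr 6 weeks, C57BL/6 6 weeks, MRL/lpr 10 weeks, C57BL/6 10 weeks, and a strain ratio is MRL/lpr over C57BL/6.

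Extracellular matrix in the kidney fills the narrow space between tubules and capillaries and forms the mesangium and the basement membranes. Fibroblasts and the mural cells of vessels (pericytes, smooth muscle and mesangial cells) make most fibrillar collagen, while podocytes and endothelial cells make much of the glomerular basement membrane and regulate matrix around them. TGF-beta acts through its type II and type I receptors and SMAD proteins to induce collagen, fibronectin and Ccn2. Ccn1 and Ccn2 are matricellular proteins and also standard targets of the YAP and TAZ coactivators, which bind DNA through TEAD factors and respond to cell tension.

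RefSeq promoter sequences (GRCm38.p6) were at hand for 26 of the 39 genes, as 30 promoters. Ccn2 and Col1a1 were not among them and so were not searched. The 250 bases before the start of transcription were searched on both strands for the TEAD motif GGAATG, the AP-1 motif TGANTCA, and the SMAD motifs GTCTAGAC and CAGACA. The TEAD motif was found in promoters of 5 members, AP-1 in those of 2, CAGACA in those of 8 and GTCTAGAC in none. Those of Tgfbr2, Timp2, Serpine2 and Bgn, whose strain ratios are described below, held no match. Of all 32851 mouse promoters searched in the same way, 12.6% held GGAATG, 6.75% held TGANTCA, 0.167% held GTCTAGAC and 17.1% held CAGACA. The promoters of 4 members follow, chosen among those with a motif match because strain ratios of these genes are described below in podocyte or fibroblast nuclei. They are written 5′ to 3′, with motif matches in capitals. Ccn1 holds the TEAD motif in the reverse direction, Ecm1 holds AP-1 and CAGACA, Col1a2 holds CAGACA, and Col3a1 holds TEAD in the reverse direction and CAGACA in both directions. A match describes letters in this window and is not a measured binding site.
Ccn1 (chr3:145649986-145650235, minus strand): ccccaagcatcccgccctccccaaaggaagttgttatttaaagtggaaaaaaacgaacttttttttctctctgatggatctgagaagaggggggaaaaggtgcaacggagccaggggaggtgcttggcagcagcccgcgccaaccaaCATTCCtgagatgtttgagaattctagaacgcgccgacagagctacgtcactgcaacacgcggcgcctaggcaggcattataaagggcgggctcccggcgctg
Ecm1 (chr3:95739570-95739819, minus strand): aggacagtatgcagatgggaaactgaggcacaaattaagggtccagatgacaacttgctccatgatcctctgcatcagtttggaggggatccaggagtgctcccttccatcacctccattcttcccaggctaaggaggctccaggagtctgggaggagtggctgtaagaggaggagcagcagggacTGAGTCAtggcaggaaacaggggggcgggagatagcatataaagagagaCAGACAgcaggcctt
Col1a2 (chr6:4505368-4505617, plus strand): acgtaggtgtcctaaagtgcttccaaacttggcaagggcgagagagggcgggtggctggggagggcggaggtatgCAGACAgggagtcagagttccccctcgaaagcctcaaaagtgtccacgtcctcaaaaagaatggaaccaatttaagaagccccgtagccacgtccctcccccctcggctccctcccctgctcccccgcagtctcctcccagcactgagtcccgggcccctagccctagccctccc
Col3a1 (chr1:45311288-45311537, plus strand): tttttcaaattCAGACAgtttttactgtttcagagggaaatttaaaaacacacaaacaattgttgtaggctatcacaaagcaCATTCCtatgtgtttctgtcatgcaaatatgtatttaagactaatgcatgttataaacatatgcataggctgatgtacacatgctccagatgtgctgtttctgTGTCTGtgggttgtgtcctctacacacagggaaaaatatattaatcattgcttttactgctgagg

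Nuclei were assigned to fibroblasts, mural cells, podocytes or endothelial cells by UMIs of 12 marker genes per class, none of which is a member. A UMI (unique molecular identifier) counts 1 captured RNA molecule. A nucleus took the class with most marker genes detected, with at least 2 and no tie, and nuclei with 3 or more of the proximal tubule genes Slc34a1, Lrp2, Cubn and Slc27a2 were left out. This gave 879 fibroblast, 243 mural, 745 podocyte and 3140 endothelial nuclei of 35662 kept. Fibroblast nuclei numbered 87, 469, 134 and 189, mural nuclei 40, 109, 49 and 45, podocyte nuclei 132, 197, 183 and 233, and endothelial nuclei 407, 1324, 524 and 885. Of these, 43, 203, 64 and 71 fibroblast and 28, 68, 33 and 31 mural nuclei held exactly 2 markers of their class. So did 30, 28, 34 and 18 podocyte and 25, 103, 41 and 59 endothelial nuclei. The libraries held 6466973 to 7660682 UMIs, medians of 589 to 714 per barcode and minimums of 175 to 308, and pairs of libraries shared 112 to 143 barcodes. Among the leading genes were Ptpro, Nphs1 and Wt1 in podocyte nuclei and Flt1, Tek and Emcn in endothelial nuclei. Abca8a, Pdgfra and Cdh11 were among those of fibroblast nuclei. Each of these is a marker that set its class, so its lead was fixed by the assignment. Leading genes that were not markers included Arhgap28, Srgap1 and Nebl in podocyte, Plvap and Ly6c1 in endothelial, and Kcnt2 and Hsd11b1 in fibroblast nuclei. The mural nuclei were led by Ren1, the renin gene of juxtaglomerular cells and not a marker, beside the markers Cspg4 and Notch3. All 12 of 12 markers of the distal nephron were detected in each class. In mural nuclei their summed level, 7923, 9617, 11820 and 8602 counts per 1000000 UMIs of the class (CPM), was above that of the 12 mural markers, 4673, 7942, 5972 and 6292 CPM. Slc8a1 gave 90, 226, 188 and 110 UMIs of this list and Slc12a3 31, 127, 51 and 30, with at most 24 for any other gene. Without Slc8a1 the list would lie below the mural markers in each library. In fibroblast nuclei the distal nephron markers summed to 9704 CPM in MRL/lpr 6 weeks and to 2009 to 2692 CPM in the other libraries. In MRL/lpr 6 weeks Slc8a1 had 248 of these fibroblast UMIs and Slc12a3 102, with at most 18 for any other gene. The class sums and some of the named members are therefore also given without nuclei that carry immune or distal nephron markers, which means at least 2 of the 12 genes of either list. Of 12 immune markers, 12 were detected in fibroblast, 9 in mural, 7 in podocyte and 11 in endothelial nuclei, with Cd79a at 0 in all but the fibroblast nuclei. Immune markers summed to 0 to 664 CPM over all classes and libraries. Podocyte markers summed to 1950, 4192, 2446 and 2625 CPM in fibroblast nuclei.

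The 39 genes took their largest share of UMIs in fibroblast nuclei. Summed over members the level there was 26696 CPM (25176 to 28285) for MRL/lpr and 38814 (37885 to 39760) for C57BL/6 at 6 weeks, and 26554 (25236 to 27924) and 26319 (25173 to 27502) at 10 weeks. The C57BL/6 6 weeks library stood above the other 3, which had overlapping intervals. Mural nuclei followed with 14424, 23097, 17211 and 11208 CPM, then podocyte nuclei with 11809, 15658, 11508 and 13760 CPM, and endothelial nuclei with 7004, 6262, 7706 and 5945 CPM. Proximal tubule nuclei, with 3 or more of the 4 tubule genes and 0 markers of any other list, were taken as a reference. They held 4950, 2951, 3258 and 3003 CPM, which came mainly from Timp3 and Igfbp7. The 4 classes were not held to 0 markers of other lists, so the reference shares given below may understate RNA from other cells. The order fibroblast, mural, podocyte, endothelial held in each library except C57BL/6 10 weeks, where podocyte nuclei were above mural nuclei.

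**Figure D1:**
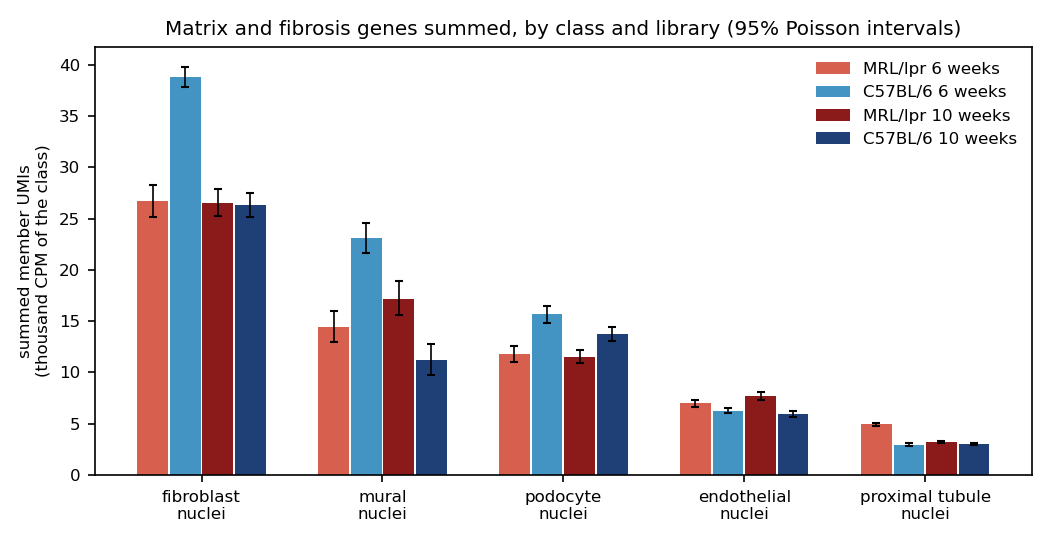
Summed member UMIs per class and library in units of 1000 CPM, with 95% Poisson intervals. Fibroblast nuclei are highest in each library, from 26319 to 38814 CPM, and the C57BL/6 6 weeks bar stands above the others in fibroblast, mural and podocyte nuclei.

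For this sum the ratio of the strains in fibroblast nuclei was 0.688 (0.646 to 0.732) in the younger and 1.01 (0.943 to 1.08) in the older pair, and 0.625 (0.551 to 0.706) and 1.54 (1.30 to 1.81) in mural nuclei. In podocyte nuclei it was 0.754 (0.694 to 0.820) and 0.836 (0.776 to 0.901), and in endothelial nuclei 1.12 (1.05 to 1.19) and 1.30 (1.21 to 1.39). After removal of nuclei with immune or distal nephron markers the ratios were 0.816 and 1.01 in fibroblast, 0.830 and 1.67 in mural, 0.848 and 0.820 in podocyte, and 1.13 and 1.15 in endothelial nuclei. A few genes made up most of each sum. Igfbp7, a secreted binding protein of insulin-like growth factors and collagen IV, gave 21.96% of member UMIs in fibroblast, 25.6% in mural and 61.8% in podocyte nuclei. Timp3, an inhibitor of metalloproteases that binds to matrix, gave 35.6% in endothelial nuclei. Without the 2 members with most UMIs, Igfbp7 and Timp3, the podocyte ratio at 10 weeks turned to 1.65.

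The 39 genes did not share 1 cell class. For 22 of them the same class had the highest CPM in all 4 libraries, proximal tubule nuclei included. In 14 cases it was the fibroblast, and these were Col1a1, Col1a2, Col3a1, the 3 collagen VI chains, Fn1, Lama2, Bgn, Dcn, Ccn1, Fbln5, Mmp14 and Ecm1. Mural nuclei were highest in all libraries for Col12a1, Serpine2 and Acta2, and podocyte nuclei for Igfbp7 and Vim. Endothelial nuclei were highest in all libraries for Lama4, Timp3 and Tgfb1. In C57BL/6 10 weeks Serpine2 had few mural UMIs, and 0 without nuclei carrying immune or distal nephron markers, so its rank there is uncertain. A minimum of 20 UMIs over the 4 libraries was passed by 31 members in fibroblast, 17 in mural, 15 in podocyte and 25 in endothelial nuclei, and ratios were counted for these only. The genes Postn, Lum, Timp1 and Lox stayed under this minimum in each of the 4 classes. Postn (periostin), a matricellular protein of activated fibroblasts, had 0 UMIs in fibroblast, mural and endothelial nuclei and 4 UMIs in podocyte nuclei. Its 0 UMIs in fibroblast nuclei allow up to 69.6, 17.6, 52.4 and 39.8 CPM.

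**Figure D2:**
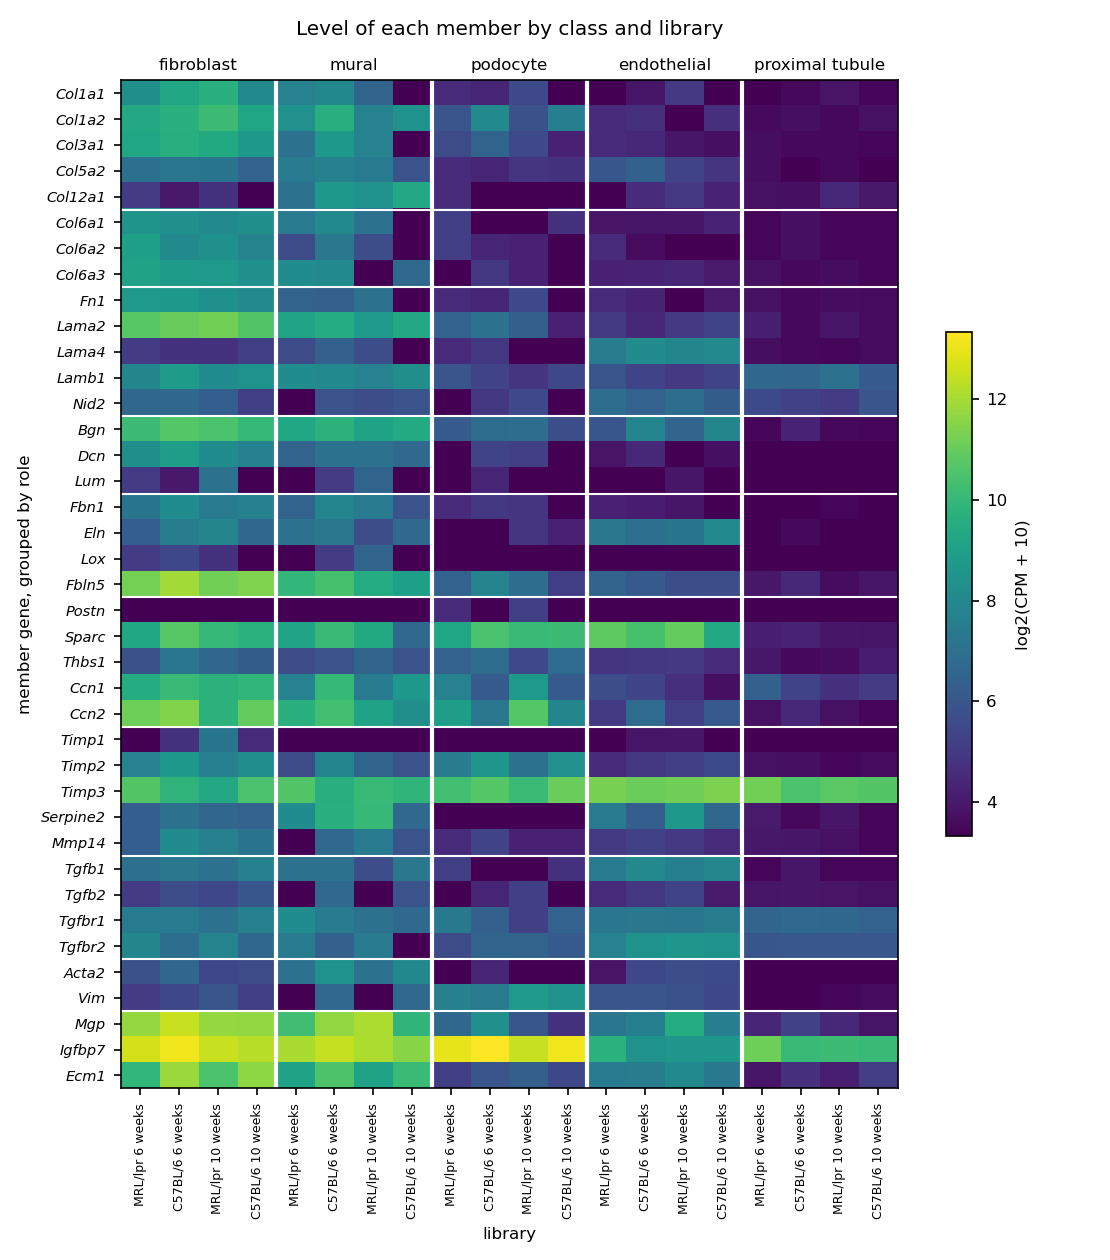
Level of each of the 39 members in log2(CPM + 10) by class (blocks of columns) and library (columns), with members grouped by role. Collagens I, III and VI, Lama2, Bgn, Dcn and Fbln5 are brightest in fibroblast nuclei, Lama4 and Tgfb1 in endothelial nuclei, and Igfbp7 in podocyte, fibroblast and mural nuclei.

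Between strains, few members lay at least 2-fold apart in one direction at both ages. In fibroblast nuclei 1 of 31 was higher in MRL/lpr (Tgfbr2) and 1 was lower (Ecm1), where 2.42% and 3.06% of the 4382 genes compared did the same. In mural nuclei 0 of 17 were higher and 2 were lower (Ccn1 and Ecm1), beside 2.77% and 2.52% of 1192 genes. In podocyte nuclei 2 of 15 were higher (Ccn1 and Ccn2) and 2 lower (Col1a2 and Timp2), beside 2.88% and 3.18% of 4472 genes. In endothelial nuclei 1 of 25 was higher (Serpine2) and 2 were lower (Bgn and Ccn2), beside 1.79% and 1.85% of 8931 genes. The fibroblast shares of 3.23% in each direction were close to those of all genes, and the podocyte shares of 13.3% rest on 2 members each. The median log2 strain ratio of the members was -0.51 at 6 weeks and 0.31 at 10 weeks in fibroblast, -0.91 and -0.07 in mural, -0.71 and 0.27 in podocyte, and -0.13 and 0.10 in endothelial nuclei. For all genes compared the medians lay between -0.06 and 0.02.

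**Figure D3:**
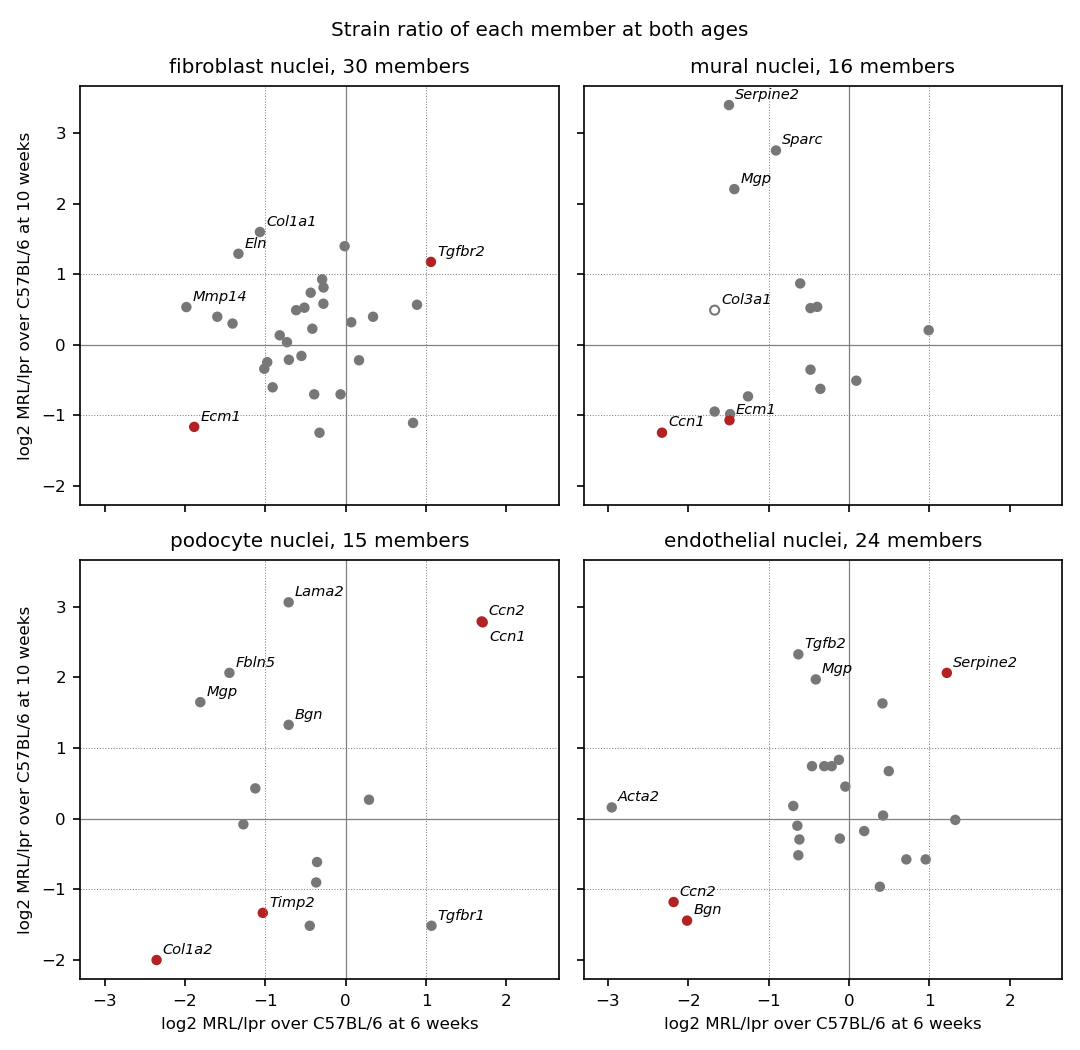
Log2 strain ratio of each member at 6 weeks (horizontal) and 10 weeks (vertical) in each class, for members with at least 20 UMIs and more than 3 UMIs on at least 1 side at each age. Red points are at least 2-fold apart in one direction at both ages, dotted lines mark 2-fold, an open point has 0 UMIs on 1 side set at 3, and labels also mark ratios that differ by 4-fold or more between ages.

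At 6 weeks alone, 7 of 31 members were at least 2-fold lower in MRL/lpr fibroblast nuclei (all genes 15.5%) and 1 was higher (10.7%). At 10 weeks 3 were lower (14.1%) and 4 were higher (12.6%). In mural nuclei 8 of 17 were lower at 6 weeks (15.7%) and 0 higher (14.9%), and at 10 weeks 2 were lower (14.9%) and 3 higher (13.8%). In podocyte nuclei 6 of 15 were lower at 6 weeks (12%) and 3 higher (12.5%), against 4 lower (13.2%) and 6 higher (10.7%) at 10 weeks. In endothelial nuclei 3 of 25 were lower (9.13%) and 2 higher (10.2%) at 6 weeks, and 2 lower (10.2%) and 4 higher (8.46%) at 10 weeks. All ratios at 6 weeks rest on the C57BL/6 6 weeks library, whose summed level was the highest in fibroblast, mural and podocyte nuclei.

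Fibrillar collagens form the load-bearing fibres of interstitial matrix, and collagens I and III are their main components in scars. The 3 genes were chosen for description after their values were seen, as were other members given below outside the stated rule. Col1a1, which codes for the alpha 1 chain of collagen I, had 13, 108, 46 and 20 UMIs in fibroblast nuclei, which were 302, 632, 804 and 265 CPM. MRL/lpr over C57BL/6 gave 0.477 (0.246 to 0.851) for the younger and 3.03 (1.76 to 5.41) for the older mice, so the strains stood in opposite order at the 2 ages. Col1a2, the alpha 2 chain, had 28, 136, 65 and 45 UMIs, or 650, 796, 1136 and 597 CPM, with ratios of 0.816 (0.523 to 1.23) and 1.90 (1.28 to 2.85). Col3a1, the chain of collagen III, had 25, 134, 38 and 30 UMIs, or 580, 784, 664 and 398 CPM, with ratios of 0.740 (0.462 to 1.14) and 1.67 (1.01 to 2.79), the former 1.28 with at least 3 marker genes per nucleus. All 3 had their lowest C57BL/6 level at 10 weeks, and each was higher in MRL/lpr at that age. Over the 3 genes the sum was 1532, 2213, 2603 and 1260 CPM, with ratios of 0.692 (0.525 to 0.901) and 2.07 (1.59 to 2.70). Col1a1 UMIs were spread over 11 of 87, 86 of 469, 34 of 134 and 17 of 189 fibroblast nuclei, with at most 5 in a nucleus. In nuclei thinned to 300 UMIs, the share with a Col1a1 UMI was 6.90%, 14.4%, 19.3% and 9.09%, against 12.6%, 18.3%, 25.4% and 8.99% unthinned and 0.349% at most in proximal tubule nuclei. Thinning left out 0, 128, 46 and 46 shallower fibroblast nuclei. With immune or distal nephron marked nuclei removed the Col1a1 ratios were 0.516 and 2.87. The ratios at 6 weeks then lay nearer 1 for Col1a2, at 0.974 (0.613 to 1.5), and for Col3a1, at 0.907 (0.560 to 1.41), and at 10 weeks the interval of Col3a1, 0.925 to 2.74, included 1.

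In podocyte nuclei, which are not a known main source of collagen I, Col1a2 had 4, 25, 5 and 21 UMIs, or 51.6, 264, 45.2 and 182 CPM. Both C57BL/6 libraries were above both MRL/lpr libraries, with strain ratios of 0.196 (0.0495 to 0.567) and 0.249 (0.0734 to 0.679). It was detected in 3.03%, 10.7%, 2.73% and 7.30% of podocyte nuclei. The share was at most 0.314% in proximal tubule nuclei, which were chosen to hold 0 markers of other lists. Col1a1 had only 1, 1, 4 and 0 UMIs in the same podocyte nuclei and Col3a1 3, 8, 4 and 1. Fibroblast markers in podocyte nuclei summed to 284, 475, 253 and 182 CPM. Their part in the Col1a2 difference was not tested. Col5a2, a collagen V chain that sets fibre diameter, and Col12a1, a fibre-associated collagen, passed the minimum of UMIs in fibroblast and endothelial nuclei (Col5a2) and in mural nuclei (Col12a1). The only ratio of these beyond 2-fold was that of Col12a1 at 6 weeks, from 3 against 16 UMIs.

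Collagen VI forms beaded filaments around cells, and its chains summed to 835 to 1370 CPM in fibroblast nuclei and 98.3 to 680 CPM in mural nuclei, against at most 51.6 CPM in podocyte and 27.3 CPM in endothelial nuclei. Col6a1 had 15, 53, 15 and 23 UMIs, Col6a2 21, 45, 18 and 16, and Col6a3 23, 72, 24 and 24 in fibroblast nuclei. Their summed ratios were 1.38 (1.01 to 1.86) and 1.19 (0.818 to 1.73) at the younger and older age. At 6 weeks collagen VI thus lay above 1 where the sum of collagens I and III lay below 1. These sums were not recomputed without immune or distal nephron marked nuclei. The 6-week ratios without them were 0.516, 0.974 and 0.907 for Col1a1, Col1a2 and Col3a1. For Col6a1, Col6a2 and Col6a3 they were 1.33, 2.50 and 1.65. Only the intervals of Col1a1 and Col6a2 then excluded 1.

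Among adhesive and basement membrane glycoproteins, Lama2 (laminin alpha 2) was the most counted in fibroblast nuclei, with 72, 346, 133 and 117 UMIs, or 1671, 2026, 2324 and 1551 CPM. Its strain ratios of 0.825 (0.631 to 1.07) and 1.5 (1.16 to 1.94) lay below and above 1 as those of collagens I and III did, and the former was 0.979 (0.741 to 1.28) without nuclei carrying immune or distal nephron markers. Fn1 (fibronectin) had 18, 68, 18 and 19 UMIs in fibroblast nuclei, with ratios of 1.05 (0.587 to 1.79) and 1.25 (0.618 to 2.51) that span 1. Lama4 (laminin alpha 4), a subunit of vascular basement membranes, had 39, 118, 44 and 79 UMIs in endothelial nuclei against 7 over all fibroblast nuclei, and its ratios there were 0.640 (0.434 to 0.927) and 0.932 (0.629 to 1.36). Nid2 (nidogen 2, a linker of laminin and collagen IV) had 24, 33, 20 and 21 endothelial UMIs, with ratios of 1.41 (0.797 to 2.46) and 1.59 (0.820 to 3.09). Lamb1 (laminin beta 1) was found at 64.5 to 123 CPM in proximal tubule nuclei too, so only 6.91% of its UMIs in the libraries came from the 4 classes.

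Proteoglycans are core proteins with sugar chains that bind collagen fibres and growth factors. Bgn (biglycan) had 50, 283, 82 and 75 UMIs in fibroblast nuclei, or 1161, 1657, 1433 and 994 CPM, with ratios of 0.701 (0.508 to 0.949) and 1.44 (1.04 to 2.00). The former was 0.872 (0.629 to 1.19), an interval that includes 1, once immune or distal nephron marked nuclei were removed. In endothelial nuclei the same gene had 12, 94, 16 and 73 UMIs, or 54.5, 221, 84.7 and 231 CPM. There both C57BL/6 libraries were above both MRL/lpr libraries, with ratios of 0.247 (0.123 to 0.453) and 0.367 (0.199 to 0.636). Bgn was detected in 2.95%, 6.27%, 2.29% and 7.01% of endothelial nuclei, and in 1.97%, 6.93%, 2.06% and 8.98% after thinning to 300 UMIs, which left out 0, 776, 281 and 462 nuclei. In proximal tubule nuclei the share was at most 0.916%. The endothelial ratios were 0.213 and 0.303 without nuclei carrying immune or distal nephron markers. Dcn (decorin) had 13, 79, 16 and 15 UMIs in fibroblast nuclei and intervals of the ratio that span 1 at both ages. Lum (lumican) had 1, 1, 7 and 0.

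Elastic fibres are built from elastin on fibrillin microfibrils with fibulins as linkers. Fbln5 (fibulin 5) had 104, 673, 133 and 203 UMIs in fibroblast nuclei, or 2414, 3940, 2324 and 2692 CPM, with ratios of 0.613 (0.494 to 0.754) and 0.863 (0.688 to 1.08). It was lower in MRL/lpr at 6 weeks, and at 10 weeks its interval spanned 1. In mural nuclei Fbln5 had 24, 56, 17 and 10 UMIs with ratios of 0.717 (0.425 to 1.18) and 1.43 (0.620 to 3.51). Eln (elastin) had 3, 30, 13 and 7 UMIs in fibroblast nuclei and 33, 49, 26 and 85 in endothelial nuclei. Its endothelial level was highest in C57BL/6 10 weeks, 269 CPM against 115 to 150 CPM in the others, and the ratio at 10 weeks was 0.512 (0.316 to 0.802). Fbn1 (fibrillin 1) had 6, 48, 9 and 15 fibroblast UMIs and ratios of 0.496 (0.173 to 1.16) and 0.791 (0.305 to 1.93). Lox, the lysyl oxidase that cross-links collagen and elastin, had 1, 6, 1 and 0.

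Ccn2 and Ccn1 were the 2 members called as higher in MRL/lpr podocyte nuclei at both ages. Ccn2 (ENSMUSG00000019997, connective tissue growth factor) had 37, 14, 179 and 27 UMIs. These were 478 (336 to 658), 148 (80.8 to 248), 1618 (1390 to 1873) and 233 (154 to 340) CPM. MRL/lpr 10 weeks stood alone at the top, and both MRL/lpr libraries were above both C57BL/6 libraries. The strain ratios were 3.23 (1.71 to 6.47) and 6.93 (4.61 to 10.8). Ccn1 (ENSMUSG00000028195), whose promoter with a TEAD motif is shown above, had 16, 6, 46 and 7 UMIs, or 206, 63.3, 416 and 60.5 CPM. Its ratios were 3.26 (1.21 to 10.2) and 6.87 (3.08 to 18), close to those of Ccn2. Ccn2 UMIs came from 29 of 132, 14 of 197, 70 of 183 and 24 of 233 podocyte nuclei, with at most 12 in 1 nucleus. Thinned to 300 UMIs, 12.9%, 4.30%, 31.1% and 7.59% of podocyte nuclei held Ccn2, against 21.97%, 7.11%, 38.3% and 10.3% unthinned. Thinning left out 0, 11, 6 and 9 nuclei. The unthinned share in proximal tubule nuclei was 0.315%, 1.07%, 0.280% and 0.105%, at median depths of 762 to 873 UMIs against 436 to 579 in podocyte nuclei.

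The podocyte ratios at 10 weeks ranged from 6.24 to 8.19 for Ccn2 and from 5.46 to 10.9 for Ccn1 over 10 other ways of processing. At 6 weeks they depended on doublets (droplets with 2 nuclei), since with the barcodes marked as doublets kept they were 1.52 and 1.78 and so no longer 2-fold. When nuclei with immune or distal nephron markers were left out they were 4.73 and 9.86 at 6 weeks, the latter from 15 against 2 UMIs with an interval of 2.29 to 88.9, and 7.52 and 6.58 at 10 weeks. Genes of the early response to stress and dissociation summed to 1523, 939, 1085 and 959 CPM in podocyte nuclei. Of 7 of these genes compared, 2 were called as higher at 6 and 10 weeks, beside 2.88% of all genes compared. The called genes were Btg2 with 28, 9, 28 and 10 UMIs and Junb with 10, 4, 7 and 2. Both intervals of Junb, 0.882 to 13.4 and 0.697 to 36.1, span 1. Jun had 9, 10, 4 and 22 UMIs and a ratio of 0.190 (0.0476 to 0.560) at 10 weeks. At that age Jund and Dusp1 had ratios of 0.736 and 0.558, and Ier3 and Klf6 had 1.415 and 1.793. The part of these genes in the Ccn1 and Ccn2 difference was not tested.

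**Figure D4:**
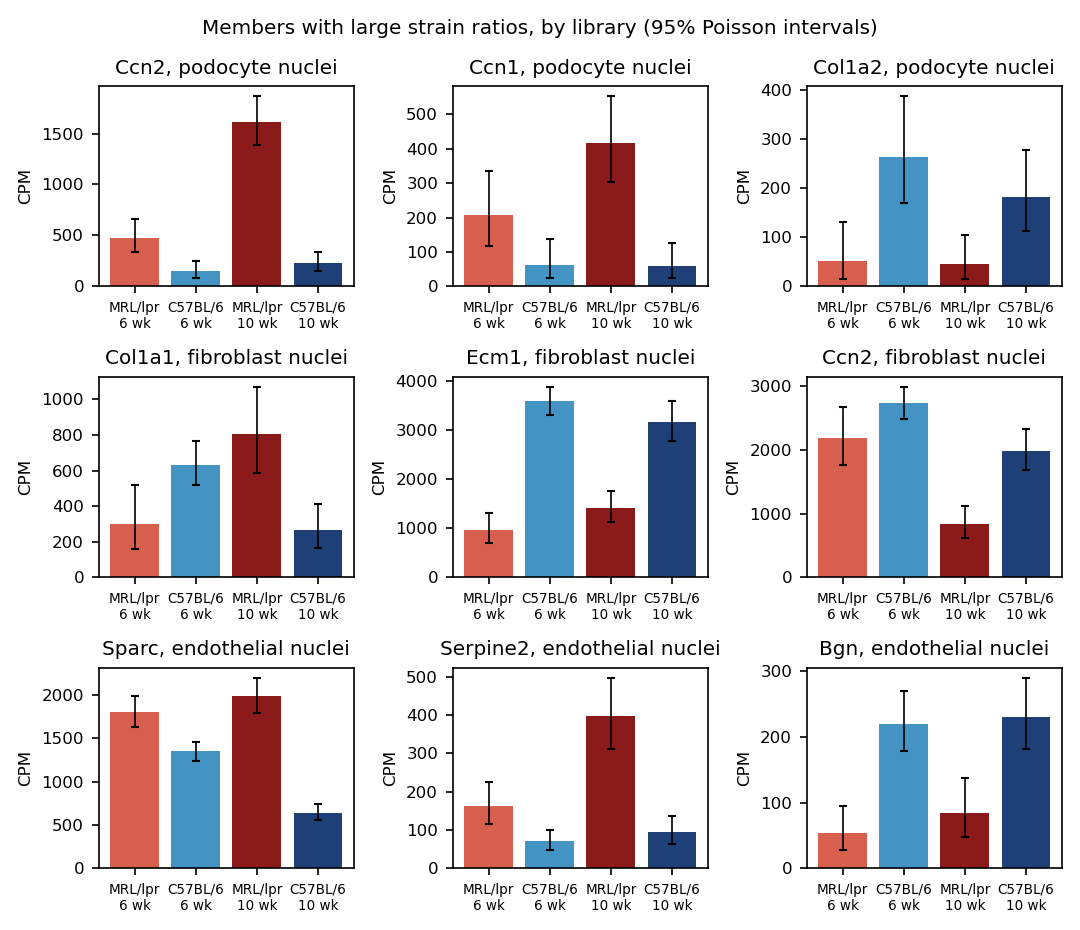
CPM of members with large strain ratios in 1 class, by library, with 95% Poisson intervals. Podocyte Ccn2 reaches 1618 CPM in MRL/lpr 10 weeks against 148 to 478 CPM in the others, while Ccn2 in fibroblast nuclei is lowest in that library, at 839 CPM.

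In other classes Ccn2 did not follow the podocyte order. In fibroblast nuclei it had 94, 467, 48 and 150 UMIs, or 2182, 2734, 839 and 1989 CPM, with ratios of 0.798 (0.633 to 0.998) and 0.422 (0.298 to 0.587). The ratio at 6 weeks was 1.17 with at least 3 marker genes per nucleus, and 0.961 (0.758 to 1.21) without immune or distal nephron marked nuclei. MRL/lpr 10 weeks was the lowest library there and the highest in podocyte nuclei. In endothelial nuclei it had 5, 44, 5 and 19 UMIs, with ratios of 0.220 (0.0681 to 0.554) and 0.440 (0.128 to 1.22). The endothelial call was lost with marked doublets kept (0.549 at 6 weeks) and without the proximal tubule exclusion (0.558 at 10 weeks). Ccn1 in mural nuclei had 5, 42, 4 and 8 UMIs, with ratios of 0.199 (0.0615 to 0.503) and 0.422 (0.093 to 1.57), and in fibroblast nuclei 31, 180, 49 and 72 UMIs, with ratios of 0.683 (0.451 to 1.00) and 0.897 (0.611 to 1.31). No test of the difference between classes was run.

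Sparc (osteonectin), a collagen-binding matricellular protein, was the second most counted member in endothelial nuclei, after Timp3. It had 396, 575, 376 and 203 UMIs there, or 1800, 1349, 1991 and 643 CPM, with ratios of 1.33 (1.17 to 1.52) and 3.1 (2.61 to 3.69). C57BL/6 10 weeks was the lowest library, and the MRL/lpr libraries were the highest 2. Sparc was detected in 53.1%, 32.9%, 46.2% and 19.3% of endothelial nuclei and in 43.7%, 33.6%, 40.3% and 16.3% after thinning, against at most 0.916% of proximal tubule nuclei. With proximal tubule nuclei not excluded its ratio at 6 weeks was 0.859, so the order at 6 weeks depends on that exclusion. In podocyte nuclei Sparc had 45, 133, 121 and 134 UMIs, or 581, 1403, 1094 and 1158 CPM, and ratios of 0.414 (0.288 to 0.584) and 0.944 (0.732 to 1.22). In fibroblast nuclei it had 27, 284, 58 and 62, with ratios of 0.377 (0.244 to 0.560) and 1.23 (0.847 to 1.79). Thbs1 (thrombospondin 1), an activator of latent TGF-beta, had 36 UMIs in all fibroblast nuclei and 32 in all podocyte nuclei, with ratio intervals that span 1 in both at both ages.

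Among protease inhibitors, Serpine2 (protease nexin 1, an inhibitor of thrombin and plasminogen activators) was higher in MRL/lpr endothelial nuclei at both ages. It had 36, 30, 75 and 30 UMIs there, or 164, 70.4, 397 and 95 CPM, with ratios of 2.32 (1.39 to 3.91) and 4.18 (2.71 to 6.62). It was detected in 8.60%, 1.96%, 10.3% and 3.28% of endothelial nuclei, in 5.41%, 2.37%, 9.05% and 3.31% after thinning, and in at most 0.472% of proximal tubule nuclei. The 2-fold call at 6 weeks was lost when proximal tubule nuclei were not excluded, when marked doublets were kept and when all libraries were held to 308 UMIs per nucleus, with ratios down to 1.52. In mural nuclei, where Serpine2 had its highest CPM, it had 7, 33, 25 and 2 UMIs, with ratios of 0.355 (0.132 to 0.816) and 10.5 (2.63 to 91.9), and 7, 24, 12 and 0 UMIs without nuclei carrying immune or distal nephron markers, where the interval at 6 weeks, 0.236 to 1.55, included 1. No UMI of Serpine2 was found in podocyte nuclei.

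Timp3 had 536, 911, 428 and 810 UMIs in endothelial nuclei, or 2436, 2138, 2267 and 2564 CPM, with ratios of 1.14 (1.02 to 1.27) and 0.884 (0.784 to 0.995). Proximal tubule nuclei held it at 2301, 1426, 1720 and 1586 CPM, and only 10.8% of its UMIs in the libraries came from the 4 classes. With the proximal tubule level subtracted, the endothelial ratio at 6 weeks was 0.189. In podocyte nuclei Timp3 had 97, 153, 125 and 245 UMIs, with ratios of 0.775 (0.595 to 1.01) and 0.534 (0.427 to 0.665). In mural nuclei it had 38, 32, 26 and 19, with ratios of 1.99 (1.21 to 3.28) and 1.15 (0.615 to 2.21). Pooled over libraries Timp3 was at 1050.3 CPM in fibroblast, 1043.2 in mural and 1555.5 in podocyte nuclei, below 1813.6 in proximal tubule nuclei. The part of tubule RNA in these values was not tested. Timp2, an inhibitor that also takes part in activating Mmp2, had 14, 35, 14 and 37 UMIs in podocyte nuclei, or 181, 369, 127 and 320 CPM, with ratios of 0.489 (0.243 to 0.933) and 0.396 (0.198 to 0.749). The Timp2 call was lost without nuclei carrying immune or distal nephron markers (0.541 at 6 weeks), with marked doublets kept (0.541 at 10 weeks), with at least 3 marker genes per nucleus (0.584 at 6 weeks) and at a minimum of 308 UMIs per nucleus (0.501 at 6 weeks). Timp1, an inhibitor often raised in fibrosis, had 0, 3, 8 and 1 UMIs in fibroblast nuclei, and 6 of the 8 lay in 1 nucleus. Mmp14, a membrane-bound collagenase, had 3, 47, 11 and 10 UMIs in fibroblast nuclei, with ratios of 0.253 (0.0504 to 0.786) and 1.45 (0.559 to 3.81).

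Of the 4 classes, endothelial nuclei, which are the most numerous, held most UMIs of the TGF-beta ligands and receptors. Tgfb1, the ligand best known in fibrosis, had 36, 107, 36 and 74 UMIs there, or 164, 251, 191 and 234 CPM, with ratios of 0.652 (0.434 to 0.959) and 0.814 (0.531 to 1.23). Tgfb2 had 3, 9, 6 and 2. The type I receptor Tgfbr1 had 31, 65, 27 and 55 UMIs, with ratios of 0.924 (0.582 to 1.44) and 0.821 (0.498 to 1.32), and the type II receptor Tgfbr2 had 45, 141, 71 and 105, with ratios of 0.618 (0.432 to 0.870) and 1.13 (0.825 to 1.54). None of these 4 genes was 2-fold apart in endothelial nuclei at both ages. In fibroblast nuclei Tgfbr2 had 10, 19, 12 and 7 UMIs, or 232, 111, 210 and 92.8 CPM, and ratios of 2.09 (0.867 to 4.72) and 2.26 (0.820 to 6.77). Both MRL/lpr libraries were higher, but both intervals span 1, and the call was lost with doublets kept, without the proximal tubule exclusion, at a minimum of 308 UMIs per nucleus and at a minimum of 50 UMIs per gene. After removal of immune or distal nephron marked nuclei the ratios were 3.1 (1.24 to 7.37) and 3.11 (1.02 to 11.3), from 10, 15, 12 and 5 UMIs. Summed over the 4 genes the fibroblast level was 534, 474, 489 and 544 CPM, with ratios of 1.13 (0.676 to 1.81) and 0.900 (0.536 to 1.49).

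Of the cytoskeletal genes used to mark myofibroblasts, Acta2 (smooth muscle actin) had 2, 15, 2 and 3 UMIs in fibroblast nuclei and 3, 14, 3 and 5 in mural nuclei, where it was highest in CPM. The mural ratio intervals were 0.0661 to 1.28 and 0.0786 to 2.6. Vim (vimentin), an intermediate filament of mesenchymal cells and podocytes, had 15, 15, 46 and 40 UMIs in podocyte nuclei, or 194, 158, 416 and 346 CPM. The strain ratios of 1.22 (0.557 to 2.69) and 1.20 (0.770 to 1.89) span 1, and the level was higher at 10 weeks in each strain, by 2.15 (1.18 to 4.14) in MRL/lpr and 2.18 (1.18 to 4.26) in C57BL/6.

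Ecm1 (ENSMUSG00000028108, extracellular matrix protein 1), a secreted glycoprotein that binds matrix and proteases, was the only member called as lower in MRL/lpr fibroblast nuclei at both ages. It had 42, 615, 81 and 239 UMIs, or 975 (703 to 1318), 3600 (3321 to 3897), 1415 (1124 to 1759) and 3169 (2780 to 3597) CPM. The intervals of the MRL/lpr libraries did not overlap those of the C57BL/6 libraries, and the ratios were 0.271 (0.193 to 0.370) and 0.447 (0.343 to 0.577). The share of fibroblast nuclei with Ecm1 was 31.0%, 64.6%, 37.3% and 58.2%, and 26.4%, 59.2%, 31.8% and 53.8% after thinning, against at most 2.10% of proximal tubule nuclei. Without nuclei carrying immune or distal nephron markers the ratios were 0.338 and 0.444. In mural nuclei Ecm1 had 13, 61, 13 and 23 UMIs, with ratios of 0.357 (0.18 to 0.656) and 0.477 (0.222 to 0.982), the latter 0.566 without nuclei carrying immune or distal nephron markers and 1.22 with at least 3 marker genes per nucleus. In endothelial nuclei it had 35, 74, 50 and 47, with ratios of 0.916 (0.595 to 1.39) and 1.78 (1.17 to 2.71).

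Mgp (matrix Gla protein), an inhibitor of calcification, had 147, 967, 197 and 253 UMIs in fibroblast nuclei, or 3413, 5661, 3442 and 3354 CPM, with ratios of 0.603 (0.503 to 0.718) and 1.03 (0.847 to 1.24). In mural nuclei it had 30, 135, 104 and 19, with ratios of 0.372 (0.242 to 0.556) and 4.62 (2.81 to 7.98), which were 0.645 and 6.90 after removal of nuclei with immune or distal nephron markers. In endothelial nuclei Mgp had 31, 80, 136 and 58 UMIs and a ratio of 3.92 (2.86 to 5.43) at 10 weeks, but 95 of the 136 UMIs of MRL/lpr 10 weeks lay in 1 nucleus. Without nuclei carrying immune or distal nephron markers the endothelial ratio at 10 weeks was 1.35 (0.876 to 2.08). Igfbp7 had 619, 969, 639 and 1025 UMIs in podocyte nuclei, or 7989, 10224, 5777 and 8859 CPM, and both MRL/lpr libraries were below both C57BL/6 libraries, with ratios of 0.781 (0.705 to 0.865) and 0.652 (0.590 to 0.720). In fibroblast nuclei it had 283, 1496, 329 and 370, with ratios of 0.750 (0.658 to 0.852) and 1.17 (1.01 to 1.36), whose intervals of 0.781 to 1.02 and 0.992 to 1.36 after that removal included 1, and in mural nuclei 104, 229, 105 and 61, with ratios of 0.760 (0.597 to 0.962) and 1.45 (1.05 to 2.03). The mural ratio at 6 weeks was 1.06 after the same removal and 1.37 with at least 3 marker genes per nucleus. In endothelial nuclei it had 182, 141, 69 and 117, where MRL/lpr 6 weeks was highest at a ratio of 2.50 (2.00 to 3.14). Proximal tubule nuclei held Igfbp7 at 2214, 1089, 1140 and 1061 CPM, which was above the endothelial level of 827, 331, 365 and 370 CPM in each library and likewise highest in MRL/lpr 6 weeks. The part of RNA from other cells in the endothelial value was not tested.

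Between ages, 0 of 31 members were at least 2-fold higher and 0 lower at 10 weeks in fibroblast nuclei of both strains, where 1.0% and 1.14% of all genes compared were. The other classes held 1 member each, Col6a3 lower in mural (all genes 1.85%), Vim higher in podocyte (1.27%) and Ccn1 lower in endothelial nuclei (0.795%). Over the 4 libraries Col6a3 had only 20 UMIs in mural and Ccn1 27 in endothelial nuclei, against 116 of Vim in podocyte nuclei. In the reverse directions 0 members were called, beside 2.77%, 1.52% and 0.638% of all genes. In C57BL/6 fibroblast nuclei 7 of 31 were at least 2-fold lower at 10 weeks (all genes 8.69%) and 0 higher (6.66%). In MRL/lpr 2 were lower (12%) and 3 higher (14.2%). Col1a1 was on both lists in opposite directions, with age ratios of 0.419 (0.246 to 0.680) in C57BL/6 and 2.66 (1.42 to 5.37) in MRL/lpr. In mural nuclei of C57BL/6 9 of 17 were lower (14.3%), and the summed level was lower with a ratio of 0.485 (0.418 to 0.561), against 1.19 (1.03 to 1.38) in MRL/lpr. In mural nuclei of C57BL/6 0 were higher (14.3%), and in those of MRL/lpr 1 was lower (11.9%) and 3 higher (15.5%). In podocyte nuclei 4 of 15 were lower (9.28%) and 1 higher (8.03%) in C57BL/6, against 2 lower (12.3%) and 4 higher (9.59%) in MRL/lpr. In endothelial nuclei 5 of 25 were lower (5.32%) and 2 higher (4.93%) in C57BL/6, against 3 lower (13.3%) and 4 higher (8.29%) in MRL/lpr. These age ratios use the same libraries as the strain ratios. In podocyte nuclei Ccn2 was higher at 10 weeks in MRL/lpr, with an age ratio of 3.39 (2.37 to 4.97), against 1.58 (0.8 to 3.26) in C57BL/6, and that difference was not tested.

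Other genes of matrix and TGF-beta biology were listed in the same way. Of 24 further TGF-beta pathway genes, 15 were compared in fibroblast nuclei, and 0 were 2-fold apart between strains at both ages, where 2.42% of all genes were higher and 3.06% lower. Their median log2 ratios were 0.09 and -0.02. In podocyte nuclei 2 of 13 were lower (Ltbp4 and Smurf2, a binder and a degrader within the pathway; all genes 3.18%), in mural nuclei 1 of 3 was higher (Itgav, an integrin chain; all genes 2.77%), and in endothelial nuclei 0 of 19 were called, beside 1.79% higher and 1.85% lower of all genes. The called genes had few UMIs, with 3, 8, 3 and 7 for Ltbp4, 5, 14, 10 and 22 for Smurf2 and 9, 5, 5 and 2 for Itgav. Their ratio intervals all span 1 at both ages. Of 15 collagen maturation genes 13 were compared in fibroblast nuclei and 0 were called, beside 2.42% higher and 3.06% lower of all genes. Their median log2 ratios were -0.71 at 6 weeks and -0.22 at 10 weeks. Of 19 other matrix genes 11 were compared there, and 2 were called as higher (all genes 2.42%). Col8a1, a short-chain collagen of vessels, had 16, 7, 16 and 8 UMIs with ratios of 9.06 (3.53 to 26.1) and 2.64 (1.06 to 7.11), and Fbln1 (fibulin 1) had 6, 8, 13 and 6 UMIs with ratios of 2.97 (0.851 to 9.77) and 2.85 (1.01 to 9.16). In endothelial nuclei Col15a1, a basement membrane collagen, had 13, 82, 8 and 28 UMIs with ratios of 0.307 (0.157 to 0.555) and 0.478 (0.188 to 1.08). Plat, the tissue plasminogen activator and a target of Serpine2, had 87, 72, 144 and 79 UMIs with ratios of 2.34 (1.69 to 3.24) and 3.05 (2.30 to 4.07). In that class 1 of 6 other matrix genes (lower, all genes 1.85%) and 1 of 10 protease genes (higher, all genes 1.79%) were called. In podocyte nuclei Plat lay the other way and was not called, with 1394, 1962.5, 669 and 1971 CPM. Its ratios there were 0.710 (0.555 to 0.905) and 0.339 (0.258 to 0.443). In mural nuclei 1 of 4 other matrix genes was called as higher (all genes 2.77%), Col18a1 with 12, 10, 13 and 4 UMIs. Its ratios of 2.01 (0.795 to 5.19) and 2.74 (0.847 to 11.5) have intervals that span 1. Of 9 matrix receptors in fibroblast nuclei 1 was called, Dag1 (dystroglycan), a laminin receptor, lower with 5, 53, 5 and 16 UMIs (all genes 3.06%). Of 9 early response genes there 1 was called, Dusp1, lower with 3, 36, 7 and 28 (all genes 3.06%).

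Outside the set, the genes whose levels followed the summed members most closely over the 16 values (4 classes in 4 libraries) were Klhdc8b, Rbms3, Cxcl12, Ccbe1 and Svep1, with Pearson r of log2(CPM + 10) of 0.947, 0.944, 0.937, 0.929 and 0.923 among 5062 genes compared. Cxcl12 is a chemokine of stromal cells, and Svep1 is one of the markers that defined the fibroblast nuclei. The 16 values share libraries and classes, so the r values describe mainly the difference between classes and carry no test.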

How the data were processed

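The deposited matrices hold UMI counts for each gene in each barcode. The authors made them with Cell Ranger. The file headers give its version as 5.0.0, while the submitters' processing notes name 3.1.0. Per the labels' protocols, nuclei came from an iodixanol gradient and were loaded for poly-dT 3' libraries. The sources used here do not give the genome build, the barcode calling rule, or the handling of intronic reads and strand. In GENCODE release M21, 12 members overlap another gene of the matrices (Col12a1, Fn1, Lama2, Nid2, Timp1, Timp2, Timp3, Tgfb2, Fbn1, Eln, Lox and Igfbp7), so their counts are uncertain.

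Barcodes with under 200 genes or over 10% mitochondrial UMIs were left out. So were 778, 863, 427 and 751 barcodes that Scrublet (scanpy 1.11.5) marked as doublets, with 0.8% expected for every 1000 barcodes. In MRL/lpr 6 weeks the automatic threshold marked 0, so the highest scores at that rate were marked. No correction for free RNA was made. UMIs were summed per class and library and scaled to CPM over all genes. Levels have exact Poisson intervals, and ratios have conditional exact binomial intervals (scipy 1.17.1). A count of 0 was set at 3 UMIs for calls, and no ratio was called where both sides had 3 UMIs or fewer. A gene was compared in a class where it reached 20 UMIs in total, and a call is a ratio of at least 2 in one direction at both ages. On simulated counts with 4-fold changes, the calls found 87%, 98%, 96% and 99% of genes set higher in MRL/lpr in fibroblast, mural, podocyte and endothelial nuclei. They found 45%, 53%, 60% and 73% of genes set lower, so lower calls were missed more often in these counts. Of unchanged genes in the same counts, 2.1%, 1.61%, 1.57% and 1.18% were called. Whether these shares hold for the measured counts was not tested. Nuclei were thinned to 300 UMIs for shares.

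By rule, the named members are the 5 with most UMIs per class, those called at both ages, the 4 TGF-beta genes and those under 20 UMIs in each class, and from the other lists at most 2 called genes per list and class. The members and lists were chosen with earlier results of these data known.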

Additional observations from a re-analysis of the deposited data

Results flagged for a closer look

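The values below are strain ratios (MRL/lpr over C57BL/6) that lay on opposite sides of 1 at 2 ages, with both counting intervals clear of 1, or in 2 classes at both ages. None of these differences was tested, since each group is 1 library. In fibroblast nuclei the ratio at 6 and at 10 weeks was 0.477 and 3.03 for Col1a1, 0.701 and 1.44 for Bgn, 1.79 and 0.464 for Timp3, and 0.750 and 1.17 for Igfbp7. Without immune or distal nephron marked nuclei the interval at 6 weeks of Bgn (0.629 to 1.19) and both intervals of Igfbp7 (0.781 to 1.02 and 0.992 to 1.36) included 1, while those of Col1a1 and Timp3 stayed clear of it. The pooled fibroblast level of Timp3, 1050.3 CPM, lay below the 1813.6 CPM of proximal tubule nuclei, and the part of tubule RNA was not tested. In mural nuclei the ratio was 0.532 and 6.75 for Sparc, from 14, 44, 16 and 2 UMIs. Mural Serpine2 had 0.355 and 10.5, Mgp 0.372 and 4.62, and Igfbp7 0.760 and 1.45. After the same removal the 6-week intervals of mural Sparc (0.260 to 1.2), Serpine2 (0.236 to 1.55) and Igfbp7 (0.812 to 1.37) and the 10-week one of Igfbp7 (0.856 to 1.78) included 1, and Mgp had 0.645 (0.411 to 0.984) and 6.90 (3.90 to 13.1). The mural nuclei also held distal nephron markers above their own markers when Slc8a1 was counted, and C57BL/6 10 weeks had 45 mural nuclei. In podocyte nuclei Fbln5 had 0.367 and 4.18, from 6, 20, 12 and 3 UMIs, with a 6-week interval of 0.158 to 1.33 after that removal, and in endothelial nuclei Timp3 had 1.14 and 0.884.

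Some members lay in opposite directions in 2 classes at the same ages. Sparc had ratios of 0.414 and 0.944 in podocyte nuclei and 1.33 and 3.1 in endothelial nuclei. Ccn1 had 0.199 and 0.422 in mural nuclei and 3.26 and 6.87 in podocyte nuclei. Ccn2 had 0.798 and 0.422 in fibroblast nuclei and 0.220 and 0.440 in endothelial nuclei, against 3.23 and 6.93 in podocyte nuclei. The fibroblast ratio of Ccn2 at 6 weeks was 0.961 (0.758 to 1.21) after that removal.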

How the results depend on the processing

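No paired analysis was possible because each group has 1 library, and for the same reason no library could be left out. The 8 summed ratios were recomputed under the listed alternatives, in 90 values, of which 57 moved by less than their counting interval, 30 moved by more and 3 turned direction. The cause was not tested. With at least 3 marker genes per nucleus the summed ratio was 0.895 in fibroblast and 0.993 in mural nuclei at 6 weeks and 2.895 in mural nuclei at 10 weeks. Without the proximal tubule exclusion it was 0.540 in fibroblast, 0.492 in mural and 1.01 in endothelial nuclei at 6 weeks, and 1.83 in mural and 0.987 in podocyte nuclei at 10 weeks. With nuclei of 2 or more proximal tubule markers left out it was 0.772, 0.754 and 1.24 in fibroblast, mural and endothelial nuclei at 6 weeks. Without nuclei carrying immune or distal nephron markers it was 0.816, 0.830 and 0.848 in fibroblast, mural and podocyte nuclei at 6 weeks and 1.15 in endothelial nuclei at 10 weeks. With marked doublets kept it was 0.740, 0.721 and 1.03 in fibroblast, mural and endothelial nuclei at 6 weeks and 0.903 in podocyte nuclei at 10 weeks. As a mean of CPM per nucleus it was 0.780, 0.744 and 1.22 in fibroblast, mural and endothelial nuclei at 6 weeks and 1.196 in endothelial nuclei at 10 weeks. With the proximal tubule CPM subtracted it was 0.617, 0.494 and 0.626 in fibroblast, mural and podocyte nuclei at 6 weeks and 1.45 in endothelial nuclei at 10 weeks, and it turned to 0.852 in endothelial nuclei at 6 weeks. Without the 2 members with most UMIs it was 0.672 in podocyte nuclei at 6 weeks and 1.17 in mural nuclei at 10 weeks, and it turned to 1.65 in podocyte nuclei at 10 weeks and 0.997 in endothelial nuclei at 6 weeks. With Gata3, chosen after seeing the data, left out of the mural markers, it was 0.713 in mural nuclei at 6 weeks.

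The count of members called at both ages, 2 in fibroblast, 2 in mural, 4 in podocyte and 3 in endothelial nuclei, was 1 in fibroblast nuclei without the proximal tubule exclusion, with doublets kept and at 50 UMIs per gene. In mural nuclei it was 0 without the proximal tubule exclusion, 1 without nuclei carrying immune or distal nephron markers and 4 with the median gene ratio set to 1. With at least 3 marker genes the 2 mural calls were Bgn and Timp3, so 0 were shared, and at 308 UMIs per nucleus the 2 fibroblast calls were Lamb1 and Ecm1. It was 1 in podocyte nuclei with doublets kept (Col1a2) and 1 in endothelial nuclei without the proximal tubule exclusion (Bgn). At 10 weeks alone, added after seeing the data, 7, 5, 10 and 6 members were called in fibroblast, mural, podocyte and endothelial nuclei, where 26.7%, 28.7%, 23.9% and 18.7% of all genes were. Of 690 values of named genes 648 moved by less than their interval, 36 moved by more and 6 turned, which counts only ratios whose own interval excluded 1. Others crossed 1 within or beyond wide intervals, such as fibroblast Col3a1 at 6 weeks (1.28 with at least 3 marker genes). With at least 3 marker genes the ratio turned to 1.17 for Ccn2 in fibroblast nuclei and 1.37 for Igfbp7 in mural nuclei at 6 weeks, and to 1.22 for Ecm1 in mural nuclei at 10 weeks. It turned to 1.06 for mural Igfbp7 at 6 weeks without nuclei carrying immune or distal nephron markers, to 0.859 for endothelial Sparc at 6 weeks without the proximal tubule exclusion, and to 0.189 for endothelial Timp3 at 6 weeks with the proximal tubule CPM subtracted. Depth limits most members, since the classes held 20343 to 426201 UMIs.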
